A study of Mus musculus with 5 samples.

Results

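Airn is a long non-coding RNA of the imprinted Igf2r cluster on mouse chromosome 17. It was described here through the 393 probes of a tiling array that lie on chromosome 17 between positions 12150000 and 12229999 of the array files, out of 387986 probes on that chromosome. The region was chosen by the measured polyA RNA levels of the 2 cell lines, which differed there, so the contrast of MEFB with MEFF polyA RNA is given as a description without a test. Probes were spaced at a median of 142 bp, against 139 bp over the chromosome, and they filled 16 windows of 5 kb with 14 to 35 probes each. The largest gap without a probe was 2190 bp.

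The RNA came from 2 lines of mouse embryo fibroblasts that had become immortal in culture without an added agent, from FVBN embryos at 12.5 days post coitum. Each line lacks the Thp interval of 1 chromosome 17, and the parental origin of that chromosome is reversed between the lines. The missing interval covers at least 4.6 Mb between the genes T and Sod2 and takes in the Igf2r cluster of 400 kb, so each line keeps a single copy of Airn. The groups were MEFB polyA RNA (genotype +/Thp, n = 1 array), MEFF total RNA (genotype Thp/+, n = 2) and MEFF polyA RNA (genotype Thp/+, n = 2). Mouse genotypes are usually written with the maternal copy first, although the labels do not state the order used here. Each genotype is represented by a single line, so differences between lines and between parental copies cannot be told apart. The array gives positions without gene names, and the fibroblast identity of the lines was not checked against markers.

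Each array compared Cy3-labelled cDNA with Cy5-labelled sonicated genomic DNA, called input, of the same genotype. Level here means log2(cDNA/input), centred on the median of all probes of the array, so 0 is the typical probe. The cDNA was double-stranded and keeps no strand, so signal of Airn and of an overlapping gene on the other strand falls together. Dyes were not swapped. Over all probes, the 99th percentile of the cDNA intensity was 20.7 times the median on the MEFB array, 5.42 and 5.33 times it for MEFF total RNA, and 9.17 and 22.4 times it for MEFF polyA RNA. The 2 MEFF polyA arrays therefore differ in range, and this spread enters every value below. In such extracts, fewer cells with a transcript and less RNA per cell cannot be told apart.

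In mice, Airn is transcribed from a promoter inside an intron of Igf2r, antisense to it, and from the paternal chromosome. It is a macro non-coding RNA: very long, mostly unspliced and retained in the nucleus. It silences Igf2r on the same chromosome, and Igf2r encodes a receptor that carries insulin-like growth factor 2 and mannose 6-phosphate-tagged proteins to lysosomes. Igf2r is thus made mainly from the maternal copy in most mouse tissues.

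The 2 promoters from which transcription crosses this region are printed for the base composition around the 2 gene starts. The RefSeq start of Igf2r used for this window falls at 12179039 in array positions by the placing described next, slightly beyond the annotated start of 12178997 at which the Airn probes are divided below. Each runs from 250 bases before to 50 bases after the gene start in RefSeq on build GRCm38.p6, at chr17:12741061-12741360 on the plus strand for Airn and chr17:12769657-12769956 on the minus strand for Igf2r. Capitals mark the dinucleotide CG, searched as the letters CG, which read the same on both strands.
Airn promoter: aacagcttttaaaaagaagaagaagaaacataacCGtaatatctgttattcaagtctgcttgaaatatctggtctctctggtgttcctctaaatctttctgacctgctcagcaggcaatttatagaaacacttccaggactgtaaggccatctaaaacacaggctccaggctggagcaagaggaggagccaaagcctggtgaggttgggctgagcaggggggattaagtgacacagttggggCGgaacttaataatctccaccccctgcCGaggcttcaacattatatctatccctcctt
Igf2r promoter: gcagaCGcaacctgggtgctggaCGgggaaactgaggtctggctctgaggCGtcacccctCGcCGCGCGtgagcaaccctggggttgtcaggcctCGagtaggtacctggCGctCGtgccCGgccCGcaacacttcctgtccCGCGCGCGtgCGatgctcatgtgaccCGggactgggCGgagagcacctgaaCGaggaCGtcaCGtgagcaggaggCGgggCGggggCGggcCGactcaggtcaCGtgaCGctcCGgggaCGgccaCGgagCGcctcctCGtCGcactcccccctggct
The Airn window held 3 CG dinucleotides at 45.7% G and C, and 76.7% of 32851 RefSeq promoters of this length held as many or more. The Igf2r window held 34 CG dinucleotides at 70.7% G and C, a count reached by 7.73% of promoters. The median promoter held 7 of them.

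The sources used here do not give the build of the array positions, and by number they are not those of NCBIM37. The probes were therefore placed on NCBIM37 by their input signal alone, without any cDNA value, over the first 50 kb of the range. In the annotation of that build (GENCODE vM1), Airn spans chr17:12934177-13052988 on the plus strand, 118.8 kb, and Igf2r spans chr17:12875272-12962530 on the minus strand. The Airn start was placed between 12150360 and 12150607 in array positions, in the intron between exons 2 and 3 of Igf2r. The Igf2r start was placed at 12178997. If the rest of the region is colinear, the probes reach along 79.4 kb, or 66.8%, of annotated Airn, and the first 28.4 kb of that lie within Igf2r. Array positions are used below unless a build is named.

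Airn had the highest level of 1062 stretches of 80 kb, counted off from the start of the region, on all 4 MEFF arrays. It lay near the array median on the MEFB array. The level over the 16 windows averaged 0.06 in MEFB, 2.07 and 2.03 in MEFF total RNA, and 1.83 and 2.86 in MEFF polyA RNA. The group means were 0.06 for MEFB (n = 1), 2.05 ± 0.03 for MEFF total RNA (SD, n = 2) and 2.34 ± 0.73 for MEFF polyA RNA (SD, n = 2). The MEFB array lay below every MEFF array, and the range of the total RNA arrays lay inside that of the polyA arrays. The MEFF arrays stood 4.05-fold and 3.92-fold (total RNA) and 3.41-fold and 6.99-fold (polyA RNA) above MEFB. MEFB minus MEFF polyA RNA was -2.29 on the log2 scale, or 4.89-fold lower in MEFB, and MEFB minus MEFF total RNA was -1.99.

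The separation held window by window. Single windows ranged between -0.26 and 0.56 on the MEFB array, between 1.60 and 2.61 on total RNA array 1, and between 1.63 and 2.54 on total RNA array 2. On the MEFF polyA arrays they ranged between 1.59 and 2.37 on array 1 and between 2.26 and 3.45 on array 2. No MEFB window reached the lowest MEFF window. All 16 windows were at least 2-fold lower in MEFB than in MEFF polyA RNA, as were 0.241% of the 15383 windows of the chromosome. All 4 MEFF arrays lay above the MEFB array in 16 of 16 windows, and in 27.4% of all windows. Because this contrast chose the region, nothing is read from these shares.

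**Figure D1:**
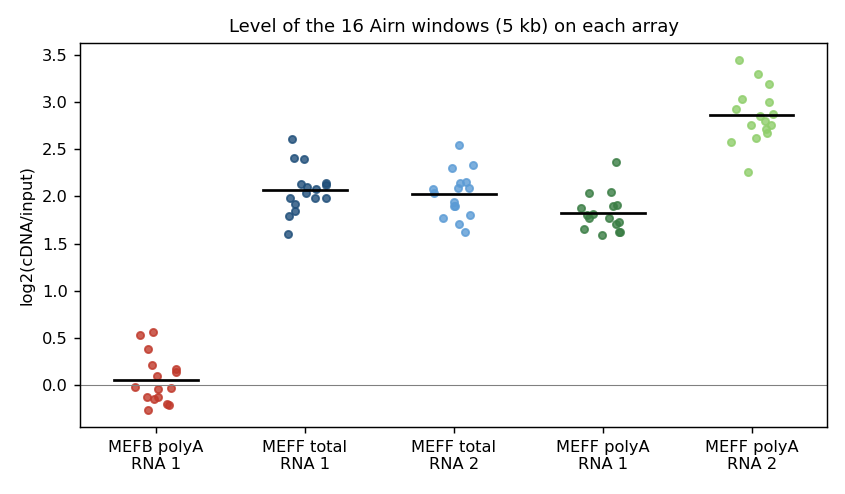
Level, log2(cDNA/input), of the 16 windows of 5 kb along Airn (points) on each of the 5 arrays, with the mean of the windows as a bar. The MEFB windows lie between -0.26 and 0.56, below all MEFF windows, which start at 1.59, and MEFF polyA array 2 lies highest with a mean of 2.86.

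The MEFF signal was spread over most probes. Probes above a level of 1 numbered 31 of 393 on the MEFB array (7.89%, against 10.3% of the other probes of the chromosome). There were 345 and 350 for MEFF total RNA (87.8% and 89.1%, against 3.31% and 3.33% elsewhere). On the MEFF polyA arrays they numbered 314 and 371 (79.9% and 94.4%, against 3.97% and 8.56% elsewhere). The MEFB share was below that of its own other probes, whereas on each MEFF array at least 79.9% of the probes passed. On all 4 MEFF arrays together, 294 of 393 probes passed, and 2.01% of the other probes of the chromosome did. All 4 MEFF arrays lay above the MEFB array at 365 probes (92.9%, against 26.0% of all probes). Of the 393 probes, 4 stayed below 0.5 on all 4 MEFF arrays. The share over all probes is not given, so nothing is read from this count.

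In the cDNA channel alone, MEFB was again the lowest array. Its median intensity over the Airn probes was 842.3 in MEFB, 11500 and 12080 in MEFF total RNA, and 6731 and 5627 in MEFF polyA RNA. Against the other probes of the same array this was 1.13-fold for MEFB, 4.49-fold and 4.76-fold for total RNA, and 4.29-fold and 9.90-fold for MEFF polyA RNA. The input channel, which holds genomic DNA, was near the rest of the chromosome on every array. Its median log2 intensity over Airn differed from the other probes by 0.11 for MEFB, by 0.00 and 0.01 for MEFF total RNA, and by 0.12 and 0.06 for MEFF polyA RNA. The single copy of Airn that each line keeps thus did not show as a lower input. The reason was not tested, and the input is not read here as copy number.

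Along the transcript, the 2 highest windows lay in the part that overlaps Igf2r. The window from 12160000 to 12164999 was at 0.53 in MEFB, 2.61 and 2.54 in MEFF total RNA, and 2.05 and 3.45 in MEFF polyA RNA. The window from 12165000 to 12169999 was at 0.17 in MEFB, 2.40 and 2.33 in MEFF total RNA, and 2.37 and 3.30 in MEFF polyA RNA. The window centred 31.9 kb after the placed Airn start, just past the placed Igf2r start, was at -0.04 in MEFB, 2.40 and 2.31 in MEFF total RNA, and 2.03 and 2.93 in MEFF polyA RNA. These 3 were the highest by the mean of the 4 MEFF arrays, and in each the MEFF arrays lay above MEFB without overlap. The lowest window by that mean, centred 46.9 kb after the placed Airn start, was at -0.02 in MEFB, 1.99 and 1.80 in MEFF total RNA, and 1.63 and 2.26 in MEFF polyA RNA. The window from 12205000 to 12209999 was at -0.04 in MEFB, 1.85 and 1.77 in MEFF total RNA, and 1.59 and 2.58 in MEFF polyA RNA. The lowest and highest windows thus differed by less than the 2 MEFF polyA arrays did from each other in the highest window.

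The first window, up to 12154999, holds the placed Airn start and was the only other one among the 3 lowest. It was at 0.09 in MEFB, 1.79 and 1.70 in MEFF total RNA, and 1.80 and 2.67 in MEFF polyA RNA.

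**Figure D2:**
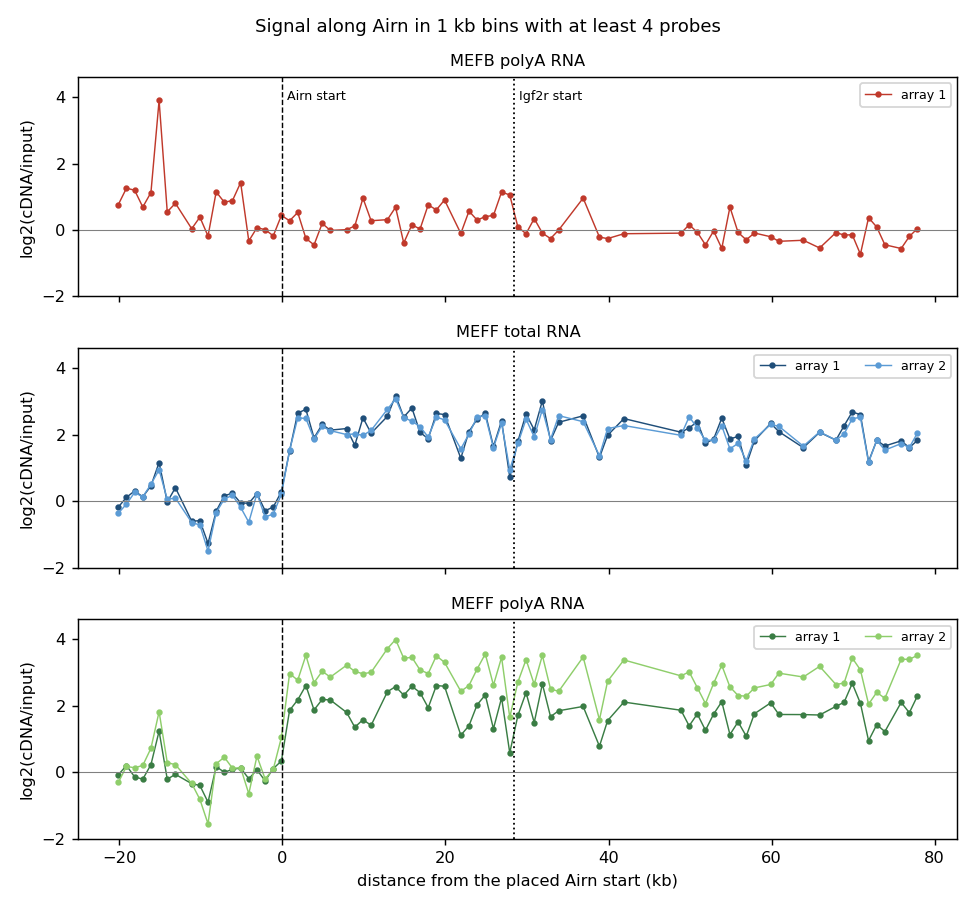
Level, log2(cDNA/input), in bins of 1 kb with at least 4 probes against distance in kb along the array positions from the placed Airn start (dashed line), with the placed Igf2r start as a dotted line. Panels show MEFB polyA RNA (1 array), MEFF total RNA (2 arrays) and MEFF polyA RNA (2 arrays). The MEFF lines step up just after the placed Airn start, with a dip at the Igf2r start, and the MEFB bins over Airn reach at most 1.14.

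The slope of level on distance was negative on all 5 arrays. The slope over the 16 windows was -0.08 log2 units per 10 kb on the MEFB array, -0.05 and -0.05 in MEFF total RNA, and -0.03 and -0.04 on the MEFF polyA arrays. The MEFF arrays averaged -0.040 ± 0.0091 (SD, n = 4). Every slope was small beside the level of the MEFF arrays. The first 8 windows averaged 0.25 on the MEFB array, 2.19 and 2.13 on the total RNA arrays, and 1.91 and 2.97 on the MEFF polyA arrays. The last 8 averaged -0.14 on the MEFB array, 1.96 and 1.92 on the total RNA arrays, and 1.74 and 2.75 on the MEFF polyA arrays. The later windows were thus lower on each array, MEFB included.

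The slope of MEFF total RNA minus that of MEFF polyA RNA was -0.015 log2 units per 10 kb. In an exact two-sided permutation test of 2 arrays against 2, this gave p = 0.333, the smallest p that design can reach. Without the last window the difference was 0.018, in the other direction, so its sign rests on that window. Its size also moved with the processing, to -0.064 after loess, -0.034 after quantile normalization and -0.0061 with windows of 10 kb.

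The last window of the range, centred 76.9 kb after the placed Airn start, was at -0.15 in MEFB, 1.60 and 1.63 in MEFF total RNA, and 1.90 and 3.19 in MEFF polyA RNA. Relative to the other 15 windows it was lower by 0.22 in MEFB, lower by 0.50 and 0.43 in MEFF total RNA, and higher by 0.08 and 0.35 in MEFF polyA RNA. Both total RNA arrays were thus below their other windows and both polyA arrays above. This difference of -0.68 was noticed after the values were seen. With the groups already apart, the exact permutation test of 2 against 2 arrays could only give p = 0.333, the smallest possible. Nothing is read from that p.

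The MEFF signal rose near the placed Airn start. The best split of the probe values into a low and a high segment put the first high probe at 12151421 on both MEFF total RNA arrays, and at 12151371 and 12151294 on MEFF polyA arrays 1 and 2. The steps were 2.27 and 2.29 for total RNA and 1.88 and 2.79 for polyA RNA. With intensities as deposited, the 4 edges thus fell within a few probes of each other, between 687 and 1061 bp after the placed Airn start. On the MEFB array the best split lay elsewhere, at 12136238 within the Igf2r side, and was a downward step of -0.99. The 5 probes just before the region averaged -0.04 in MEFB, -0.26 and -0.45 in MEFF total RNA, and -0.05 and 0.14 in MEFF polyA RNA. The first 5 probes inside it averaged 0.27 in MEFB, 0.21 and 0.22 in MEFF total RNA, and 0.36 and 1.06 in MEFF polyA RNA. The range thus opens slightly before the step, and 4 of its probes lie before the later bound of the placed start. The rise was graded. The 7 probes between 12150732 and 12151471 averaged 0.40 in MEFB, 0.81 and 0.84 in MEFF total RNA, and 1.15 and 2.24 in MEFF polyA RNA. After normexp background correction the edge lay at 12151371 on both total RNA arrays. On MEFF polyA arrays 1 and 2 it then lay at 12150732 and 12150332, the latter before the placed Airn start.

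At the far end few probes follow, and the arrays gave different edges. The total RNA arrays stepped down by 1.37 each at 12229689, near the end of the range, and the polyA arrays stepped down by 1.30 at 12271256 and by 2.28 at 12277287. The polyA edges lay beyond the total RNA edge, and the array holds only 35 probes in the 115 kb after the range. The last 5 probes inside the range averaged 0.15 in MEFB, 1.10 and 1.31 in MEFF total RNA, and 1.83 and 3.07 in MEFF polyA RNA. The next 5 probes, which spread out to 12260729, averaged 0.98 in MEFB, 0.33 and 0.44 in MEFF total RNA, and 0.89 and 1.99 in MEFF polyA RNA. Within those 5, the probes at 12260402 and 12260729 stood at 2.53 and 3.07 on the MEFB array.

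Directly after the range the level was lower than inside it on all 5 arrays. The 3 probes between 12230028 and 12230382 averaged -0.23 in MEFB, 0.12 and 0.10 in MEFF total RNA, and 0.41 and 0.91 in MEFF polyA RNA. Higher levels were read again further on, after a gap without probes. Between 12260402 and 12261407, 6 probes averaged 0.54 in MEFB, 1.27 and 1.26 in MEFF total RNA, and 2.04 and 3.46 in MEFF polyA RNA. Between 12275258 and 12277287, 9 probes averaged 0.31 in MEFB, 0.90 and 0.87 in MEFF total RNA, and 0.75 and 1.69 in MEFF polyA RNA. The following 16 probes, up to 12279457, averaged -0.18 in MEFB, 0.23 and 0.15 in MEFF total RNA, and 0.21 and 0.38 in MEFF polyA RNA. By group mean, all 4 MEFF arrays were above MEFB in each of these groups of probes. Single probes did not all follow this order. At 12260402 the level was 2.525 in MEFB, 0.328 and 0.377 in MEFF total RNA, and 0.636 and 2.263 in MEFF polyA RNA. At 12260729 it was 3.069 in MEFB, 0.947 and 1.521 in MEFF total RNA, and 2.601 and 4.983 in MEFF polyA RNA. The bin from 12261000 to 12261999, with 3 probes, was at -0.7792 in MEFB and at least 1.395 on every MEFF array. After the last group, the next probe lies at 12345564. This far part was not placed on the annotation, so these probes cannot be assigned to Airn by position.

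The overlap with Igf2r separates 2 parts of Airn. The 174 probes between the placed starts of both genes, where an antisense pair cannot be separated without strand, averaged 0.32 in MEFB, 2.21 and 2.17 in MEFF total RNA, and 1.99 and 3.08 in MEFF polyA RNA. The 215 probes beyond the Igf2r start averaged -0.10 in MEFB, 2.02 and 1.97 in MEFF total RNA, and 1.76 and 2.77 in MEFF polyA RNA. Every MEFF array stayed far above MEFB beyond the placed Igf2r start. Airn is the only one of the 2 genes annotated there, if the later part of the range is colinear with the placed part. That later part was not itself placed. On MEFB, the best split inside the range fell between 12188251 and 12188542, with a mean of 0.28 before and -0.15 after it.

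On the Igf2r side the order of the lines was the opposite. Between the probes at 12090011 and 12144979, 11 windows averaged 1.27 in MEFB, 0.03 and -0.02 in MEFF total RNA, and 0.16 and 0.36 in MEFF polyA RNA.

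A pair of probes inside the Airn range went against the rest. Igf2r exon 1 was placed at 12178733 to 12178997, and 2 probes, taken as 50 bases long, lie wholly within it. At 12178735 the level was 2.32 in MEFB, 0.31 and 0.20 in MEFF total RNA, and 0.38 and 0.73 in MEFF polyA RNA. At 12178808 it was 1.91 in MEFB, 0.17 and 0.26 in MEFF total RNA, and 0.18 and 0.57 in MEFF polyA RNA. MEFB was the highest array at both probes, and no other of the 393 probes had MEFB more than 1 above all 4 MEFF arrays (1.33% of all probes did). Another probe, at 12178983, has 15 of its bases in that exon but lies wholly in it if the RefSeq start is used, so the pattern does not hold for all exon probes under that start. It was at -0.15 in MEFB, -0.25 and -0.21 in MEFF total RNA, and 0.17 and 0.47 in MEFF polyA RNA. The MEFF dip ran past the exon. At 12179133, outside it by either start, the level was 0.00 in MEFB, 0.19 and 0.65 in MEFF total RNA, and 0.66 and 1.22 in MEFF polyA RNA. The MEFF arrays were high again at 12179333, with 0.23 in MEFB, 2.92 and 2.68 in MEFF total RNA, and 3.22 and 4.25 in MEFF polyA RNA. Input intensity at the 2 exon probes was 0.607 and 0.593 times the array median for MEFB, and between 0.518 and 0.980 times it on the MEFF arrays. These probes were singled out after their values were seen, and whether base composition plays a part was not tested.

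That exon lies in the bin from 12178000 to 12178999, which was at 1.05 in MEFB, 0.73 and 0.95 in MEFF total RNA, and 0.59 and 1.65 in MEFF polyA RNA. It is the dip at the Igf2r start in the plot of bins along the transcript. The highest MEFB bin was its neighbour from 12177000 to 12177999, at 1.14 in MEFB, 2.42 and 2.34 in MEFF total RNA, and 2.24 and 3.46 in MEFF polyA RNA. The other bin among the 3 highest of MEFB, from 12187000 to 12187999, was at 0.96 in MEFB, 2.57 and 2.39 in MEFF total RNA, and 1.98 and 3.47 in MEFF polyA RNA. That bin's MEFB value rests on 1 probe at 12187056 with a level of 3.795, the highest MEFB value in the range, and its other 4 probes lay between -0.19 and 0.57. Of 60 bins with at least 4 probes, 56 had all 4 MEFF arrays above 1, 58 had all 4 above MEFB, and 2 had MEFB above 1. Shares over all bins of the chromosome are not given here. Among single probes outside Airn, all 4 MEFF arrays were above 1 at 2.01%, and MEFB was above 1 at 10.3%. Over all probes, all 4 MEFF arrays lay above MEFB at 26.0%. Because the contrast of the lines chose the region, nothing is read from these counts.

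MEFF total RNA was set beside MEFF polyA RNA to see whether Airn differed between all RNA of the line and its polyadenylated part. With intensities as deposited, no difference was detectable. The polyA arrays are those used in choosing the region. Nothing in the labels says that cultures were separate, so each p reflects the spread between arrays, which may be technical. The total RNA arrays averaged 2.05 ± 0.03 and the polyA arrays 2.34 ± 0.73 (SD, n = 2 each), a difference of -0.30 (exact two-sided permutation p = 1.0, smallest possible 0.333). By limma with Benjamini-Hochberg adjustment, 0 of the 16 windows passed an adjusted p of 0.05 (lowest adjusted p = 0.76), and 0 had an unadjusted p under 0.05. Over the chromosome 0.0% of windows passed the adjusted threshold, and 7.73% had an unadjusted p under 0.05. Both total RNA arrays lay below both polyA arrays in 2 of 16 windows (20.9% of all windows) and above both in 0 of 16 (14.2%).

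This comparison depended on how the arrays were scaled to each other. After quantile normalization the Airn level was 0.02 in MEFB, 2.96 and 2.95 in MEFF total RNA, and 1.95 and 2.03 in MEFF polyA RNA. The total RNA arrays then lay above the polyA arrays without overlap in 16 of 16 windows (26.0% of all windows), by 0.96 on average, and limma called 15 of 16 windows higher in total RNA (adjusted p over the 16 windows between 0.00015 and 0.16), against 2.53% of all windows. Normexp background correction followed by quantile normalization gave 14 of 16 windows higher in total RNA, against 1.38% of all. After loess within arrays the levels were 0.16 in MEFB, 2.34 and 2.29 in MEFF total RNA, and 2.06 and 1.96 in MEFF polyA RNA, a difference of 0.31, with 0 windows called. After normexp background correction they were 0.22 in MEFB, 3.99 and 3.73 in MEFF total RNA, and 3.39 and 4.06 in MEFF polyA RNA, a difference of 0.13, with 0 of 16 windows called against 3.37% of all windows in either direction. The direction therefore turned with the scaling, and the MEFF polyA arrays, 1.03 apart as deposited, were 0.08 apart after quantile normalization. The median over all windows of the difference, total minus polyA RNA, was -0.10 after normexp and -0.01 as deposited. It was 0.01 after quantile normalization and -0.004 after loess. By the slide numbers in the files, RNA type and slide series cannot be told apart.

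**Figure D3:**
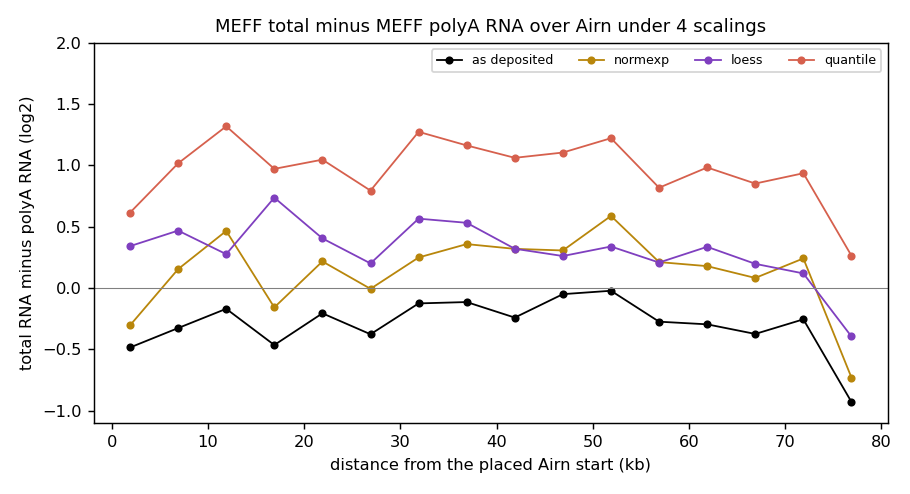
Difference in level, MEFF total RNA minus MEFF polyA RNA (log2), in each of the 16 windows of 5 kb against distance in kb along the array positions from the placed Airn start, for intensities as deposited and after normexp, loess and quantile normalization. The mean difference is -0.30 as deposited and 0.96 after quantile normalization, and the last window is the lowest under each scaling.

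Leaving out MEFF polyA array 2 turned the difference of the deposited intensities to 0.22, and leaving out array 1 made it -0.81. Limma then called 13 and 16 of the 16 windows, and 3197 and 4485 of all 15383, with the remaining polyA array assumed to vary like the total RNA arrays. The direction of the mean difference thus rests on which polyA array stands for the group.

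Of the 1062 stretches of 80 kb with at least 100 probes, Airn was the only one with all 4 MEFF arrays more than 1 above MEFB. The stretches were counted off from the start of the region, so the region fills exactly 1 of them. Other transcripts may be split between stretches. The contrast of the lines also chose the region, so its place among the stretches is a description. Airn ranked 405 on the MEFB array, and 1 on each of the 2 MEFF total RNA and the 2 MEFF polyA arrays. Single windows ranked between 2030 and 10721 of 15383 on the MEFB array, between 2 and 48 on the total RNA arrays, and between 17 and 208 on the MEFF polyA arrays. All 16 windows were among the highest 1% on both total RNA arrays, and 15 on each MEFF polyA array. The total RNA arrays are not in the contrast that chose the region. They come from the same line as the MEFF polyA arrays, so their ranks are not an independent check. The lowest MEFF array stood 1.76 above MEFB over the probes of Airn. In the next largest case, between 29670000 and 29749999, that gap was 0.36, and in 19.9% of the stretches all 4 MEFF arrays lay above MEFB.

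The stretches most like Airn by Euclidean distance over the 5 array levels were still far from it. The nearest, from 34310000 to 34389999 at a distance of 2.44, was at 1.30 in MEFB, 0.78 and 0.78 in MEFF total RNA, and 1.25 and 1.97 in MEFF polyA RNA. The next, from 44790000 to 44869999 at 2.60, was at 1.43 in MEFB, 0.68 and 0.69 in MEFF total RNA, and 1.21 and 2.02 in MEFF polyA RNA. After it, the stretch from 67670000 to 67749999 at 2.68 was at 1.58 in MEFB, 0.97 and 0.91 in MEFF total RNA, and 1.04 and 1.54 in MEFF polyA RNA. In each of these, MEFB lay above both total RNA arrays, unlike Airn. Genes in these stretches were not placed and are not named.

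**Figure D4:**
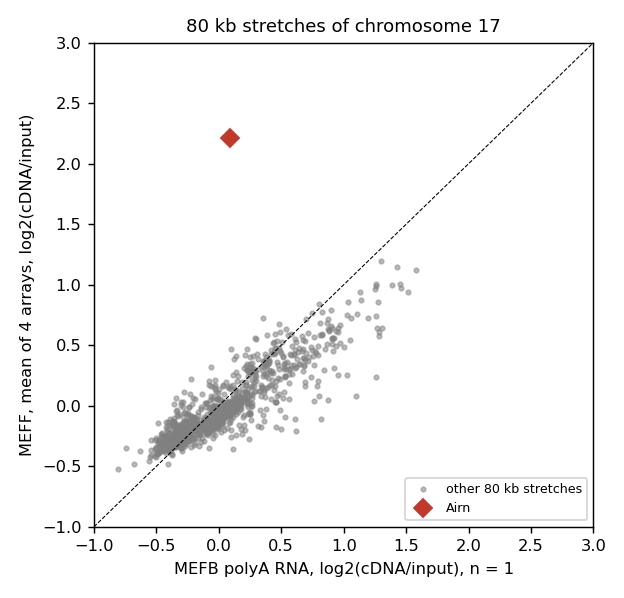
Mean level, log2(cDNA/input), of each of 1062 stretches of 80 kb of chromosome 17, on the MEFB array (x axis, n = 1) and over the 4 MEFF arrays (y axis). The stretches were counted off from the start of the Airn range. The dashed line marks equal levels, and Airn (diamond) lies at 0.09 in MEFB and 2.22 in MEFF, apart from all other stretches.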

How the data were processed

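A set of 5 2-colour tiling arrays of chromosome 17 was analysed, in the groups MEFB polyA RNA (n = 1), MEFF total RNA (n = 2) and MEFF polyA RNA (n = 2). Per the file headers, the authors deposited NimbleScan 2.2.34 output, 1 unnormalized intensity per probe and channel. The array maker labelled and hybridised the samples after T7 amplification of the input, per the labels' protocols. Of 388000 probes, 387986 lie on chromosome 17.

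Each probe's log2(cDNA/input) was centred on the array median, and means were taken for 15383 windows of 5 kb holding 8 probes or more. No normalization beyond centring was used, because cDNA against genomic DNA is not balanced around 0. Unbalanced range between arrays therefore stays in the values. Probes at the scanner limit of 65535, between 1 and 81 per channel and array, were kept. The group comparison used limma 3.58.1 with R 4.3.3 (lmFit and eBayes, all 5 arrays, 3 group means, 2 residual degrees of freedom), with Benjamini-Hochberg adjustment over all windows. Single values were compared by exact permutation over arrays. The fit was tested on simulated data with 200 changed windows. All simulated arrays had the spread of the MEFF total RNA arrays, so the test does not cover the wider spread between the MEFF polyA arrays. The number of arrays limits the precision.

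Probes were placed on NCBIM37 in blocks by regressing input signal on the base counts of 50 bases per probe, at shifts between 300000 and 1300000. The blocks over the first 50 kb of the range and the 50 kb before it gave neighbouring best shifts of 783817, 783570 and 783533. Their fits stood 13.6, 9.3 and 10.5 SD above the mean over all shifts, against 9.8, 7.8 and 8.8 for the next best shift. The margin was smallest for the block that holds the Airn start. The block from 12200000 to 12229999 gave a different best shift, 342864, and later blocks were not placed.

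Named were Airn and the neighbouring Igf2r stretch, the 3 highest and 3 lowest windows by the mean of the MEFF arrays, the 3 highest 1 kb bins of MEFB, and the 3 stretches nearest in level. The members and lists were chosen with earlier results of these data known. Alternatives tried were windows of 2 and 10 kb, window medians, loess, quantile and normexp (offset 50) normalization, cDNA without the input channel, leaving out probes with input in the lowest 10%, a trended prior, the MEFF arrays fitted separately, and leaving out each replicate. Normexp followed by quantile, leaving out the last window, and windows beyond the placed Igf2r start were added after seeing the data.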

Additional observations from a re-analysis of the deposited data

How the results depend on the processing

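The count of windows called between MEFF total and MEFF polyA RNA, 0 of 15383, stayed at 0 with loess, windows of 2 and 10 kb, window medians, cDNA without input, removal of dim probes, a trended prior and a fit of the MEFF groups alone. It was 518 after normexp, 929 after quantile normalization and 597 after both. Of the 16 Airn windows, 0 were called after normexp, 15 after quantile normalization and 14 after both. With 1 array left out, between 0 and 4485 windows were called over the chromosome and between 0 and 16 in Airn. Both counts were 0 without either total RNA array, while without polyA array 1 they were 4485 and 16, and without polyA array 2 they were 3197 and 13. The mean difference over Airn, -0.30, was 0.31 after loess, 0.96 after quantile normalization, 0.13 after normexp and 0.96 after normexp and quantile. It ranged between -0.81 and 0.22 with 1 array left out. The difference in slope, -0.015 log2 units per 10 kb, was -0.064 after loess, -0.034 after quantile normalization, -0.0061 with windows of 10 kb, 0.018 without the last window and between -0.018 and -0.011 with 1 array left out. MEFB minus MEFF polyA RNA, -2.29, was -3.50 after normexp, and between -2.81 and -1.77 with 1 polyA array left out. The median left edge of the MEFF signal, 12151396, was 12151051 after normexp. Combined normexp and quantile normalization and removal of the last window were chosen after seeing the data. The causes of these shifts were not tested. No paired analysis was possible because the labels give no replicate numbers, and arrays were numbered in accession order only. The MEFB group has 1 array and no replicate check. Signal over background differed between the arrays, the 2 MEFF polyA arrays included, and groups of 2 arrays cannot reach an exact p below 0.333.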

Other observations

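Probes that were high on 1 MEFF array within Airn tended to be high on the others. Over the 393 probes, which share base composition and array design and are not replicates, Pearson's r was 0.911 between the 2 MEFF total RNA arrays, 0.754 between the 2 MEFF polyA arrays, and between 0.714 and 0.822 across the RNA types. The MEFB array correlated with the MEFF arrays between 0.031 and 0.129 over the same probes. Over the 16 windows, r was 0.959 between the total RNA arrays and 0.766 between the polyA arrays, and between 0.473 and 0.590 across the RNA types. The MEFB array correlated with the MEFF arrays between 0.177 and 0.374 over these windows.

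A spliced form of Airn in the NCBIM37 annotation has an inner exon placed at 12188623 to 12188845, where no probe starts. The nearest probe before it, at 12188542, was at -0.44 in MEFB, 2.31 and 2.02 in MEFF total RNA, and 2.79 and 3.68 in MEFF polyA RNA. The nearest after it, at 12188966, was at -0.87 in MEFB, 2.53 and 2.14 in MEFF total RNA, and 2.49 and 2.89 in MEFF polyA RNA. Both flank the exon in sequence annotated as intron, and all 4 MEFF arrays lay above MEFB at each. In the same way, the placed exon 2 of Igf2r holds no probe start, and at the nearest intron probe after it, 12158152, the level was 0.84 in MEFB, 3.11 and 2.24 in MEFF total RNA, and 2.30 and 2.90 in MEFF polyA RNA.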
